A study of Mus musculus with 24 samples.

Results

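Voltage-gated calcium channels open when the cardiomyocyte (CM) membrane depolarises and let calcium into the cell. In ventricular CMs the L-type channel carries most of this current and triggers calcium release from the sarcoplasmic reticulum at the dyad, whereas T-type channels open at more negative voltages and are known from the embryonic and newborn heart and from pacemaker cells. A channel is built from a pore-forming α1 subunit with auxiliary subunits. The 6 genes described here are the pore-forming L-type genes Cacna1c (Cav1.2) and Cacna1d (Cav1.3), the pore-forming T-type genes Cacna1g (Cav3.1) and Cacna1h (Cav3.2), the auxiliary β subunit gene Cacnb2 and the auxiliary α2δ subunit gene Cacna2d1. They were chosen by name, out of 56923 gene identifiers in the count tables, and all 6 were among the 20368 genes tested.

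The study asked how loss of Caspase-2, the protease activated by the PIDDosome complex, alters the transcriptome of CM nuclei after birth. Nuclei were isolated from mouse hearts, sorted on PCM1, a protein at the CM nuclear envelope, and used for bulk RNA sequencing of 3′ ends on postnatal days 1, 7 and 14 (P1, P7 and P14). Each library came from a pool of 15 hearts at P1, 6 hearts at P7 or 2 hearts at P14, with sexes mixed. Controls were XMLC2(-)Casp2(fl/fl) mice, called WT in one label although they carry both floxed Casp2 alleles, and depleted animals were XMLC2(+)Casp2(fl/fl), in which the CM-restricted XMLC2-Cre deletes Casp2. Mice with Cre but no floxed allele were not analysed here, so effects of Cre and of Casp2 loss cannot be told apart. There were 4 libraries per day and genotype, 24 in all, of which the study set aside 3 for low quality (replicate 1 of the P1 controls, replicate 3 of the P14 controls and replicate 1 of the P14 depleted group). The other 21 libraries were compared here.

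These libraries held 891817 to 2924097 reads on genes. Reads placed outside every gene made up 34.3 to 64.3% of uniquely placed reads at P7 and 63.7 to 76.1% at P14. The 8 CM markers (Ttn, Actn2, Myh6, Tnnt2, Ryr2, Tnni3, Myl2 and Mybpc3) were all detected in each of the 6 groups. They summed to 12607 to 89483 CPM (reads per 1000000 reads on genes), whereas no list of another cell type passed 1115 CPM. Marker sums, here and below, are without TMM factors. Levels of single genes below are CPM scaled with TMM factors unless stated otherwise. The CM sum, which includes Ryr2, was itself lower at P14, at 12607 to 46756 CPM in controls and 16024 to 28073 CPM in depleted nuclei, than at P7, at 59651 to 89483 and 47689 to 69335 CPM. In depleted nuclei the summed endothelial markers were higher at P14 (555 to 600 CPM, with Cdh5 and Kdr at 0) than at P7 (142 to 369 CPM), as were fibroblast markers (161 to 349 against 82.5 to 145 CPM), with no overlap, and mural cell markers were lower (154 to 243 against 286 to 431 CPM). In controls the same sums overlapped between the days, at 51.6 to 1115 and 122 to 311 CPM for endothelial, 137 to 269 and 53.7 to 163 CPM for fibroblast and 65.7 to 465 and 229 to 326 CPM for mural markers. Their part in the changes from P7 to P14 below was not tested. Casp2 could not serve as a check of genotype, with 9 reads in P7 controls, 8 in P7 depleted nuclei and 0 in every other group.

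Genome positions below are on GRCm39. Cacna1c (ENSMUSG00000051331) spans chr6:118564201-119173851 on the minus strand, Cacna1d (ENSMUSG00000015968) chr14:29761896-30213412 on the minus strand, Cacna1g (ENSMUSG00000020866) chr11:94299217-94365230 on the minus strand and Cacna1h (ENSMUSG00000024112) chr17:25593259-25652764 on the minus strand. Cacnb2 (ENSMUSG00000057914) spans chr2:14607899-14994127 and Cacna2d1 (ENSMUSG00000040118) chr5:16139372-16579509, both on the plus strand. Reads were counted over exons and introns alike, so these spans are the counted features. Other annotated genes cover 21.7% of the Cacnb2 span, 16 genes in all, against 0.4 to 5.9% for the other members. The strand setting of the counting was not given in the sources used here, and reads from genes inside a span could enter its count.

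The 250 bases before the annotated canonical start are shown for Cacna1c, the L-type gene with the most reads, and for Cacna1g, the T-type gene with the most reads. They are written 5′ to 3′ on the gene's strand, read from GRCm39, with matches to an E-box (CANNTG) or a GC box (GGGCGG), searched on both strands, in capitals. The regions are chr6:119084937-119085186 and chr11:94365231-94365480, both on the minus strand.
Cacna1c: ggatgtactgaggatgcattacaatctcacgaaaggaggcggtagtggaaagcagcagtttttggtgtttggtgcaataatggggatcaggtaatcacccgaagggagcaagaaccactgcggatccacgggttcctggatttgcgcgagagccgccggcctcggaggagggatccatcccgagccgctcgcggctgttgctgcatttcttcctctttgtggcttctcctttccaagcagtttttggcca
Cacna1g: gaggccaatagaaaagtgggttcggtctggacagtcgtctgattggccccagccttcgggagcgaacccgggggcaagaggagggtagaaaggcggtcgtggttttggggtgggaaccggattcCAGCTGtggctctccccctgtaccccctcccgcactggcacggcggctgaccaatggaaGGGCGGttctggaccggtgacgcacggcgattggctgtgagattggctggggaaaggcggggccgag
The Cacna1c window held no match to either motif and had a GC content of 54.8%. The Cacna1g window, with 64.4% GC, held 1 E-box and 1 GC box. Of 21770 promoter windows of this length, 64.8% held an E-box and 36.3% a GC box. Neither window matched the GATA factor motif AGATAA, which 9.6% of all windows hold. The TEAD motif GGAATG, in 12.1% of windows, and the TATA box TATAAA, in 11.9%, were not found either. MEF2 and CArG box motifs, in 2.8 and 1.4% of windows, were absent from both windows as well. These letters are matches in one window per gene and nothing more.

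Cacna1c was the most read of the 6 genes by far. It had 257408 reads over the 21 libraries and ranked 8 among the genes tested, followed by Cacnb2 with 47737 reads (rank 48), Cacna2d1 with 13253 (257), Cacna1d with 5822 (846), Cacna1g with 4340 (1251) and Cacna1h with 311 (11990). Per kilobase of gene span, mean levels over the libraries were 12.6 CPM per kb for Cacna1c, 3.64 for Cacnb2, 1.99 for Cacna1g, 0.919 for Cacna2d1, 0.402 for Cacna1d and 0.143 for Cacna1h. Scaled by span, the T-type gene Cacna1g stood above Cacna2d1 and Cacna1d, although it had fewer reads. Libraries of 3′ ends need not gain reads with span, so this order is not read as one of expression. Genomic stretches of at least 10 A on the gene's strand, where an oligo-dT primer can bind within introns, numbered 49 in Cacna1c, 40 in Cacna2d1, 39 in Cacnb2, 32 in Cacna1d, 2 in Cacna1g and 0 in Cacna1h. Their part in the levels was not tested.

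Because so many reads lay outside genes, read density over each gene was set against the density outside genes in the same library. Cacna1c stood above it in 19 of 21 libraries, with a median ratio of 9.51, and Cacnb2 in 17, with a median ratio of 2.31. Cacna1g did so in 10 libraries, including all P7 libraries (ratios of 1.8 to 4.97), Cacna2d1 in 5 and Cacna1h in 1. Counted over both strands, Cacna1d lay below the outside density in every library, at ratios of 0.127 to 0.635, with a median of 0.28, beside medians of 0.208 for Cacna1e and 0.174 for Cacna2d3, channel genes known from neurons. With the outside density counted per strand, which the unknown strand setting leaves possible, the members stood above it more often: Cacna1c and Cacnb2 in all 21 libraries, Cacna1g in 18, Cacna2d1 in 16, Cacna1d in 9 and Cacna1h in 2. The values below of Cacna1d, and of Cacna1h in most libraries, can therefore not be told apart from the density of reads outside genes. At P14 this extends to other members when both strands are counted. Cacna1g ratios were 0.076 to 0.715 in controls and 0 to 0.545 in depleted nuclei. Those of Cacna2d1 were 0.26 to 0.872 and 0.207 to 0.339. In P14 depleted nuclei ratios were 0.429 to 0.803 for Cacnb2 and 0.865 to 3.84, with a median of 0.914, for Cacna1c.

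**Figure D1:**
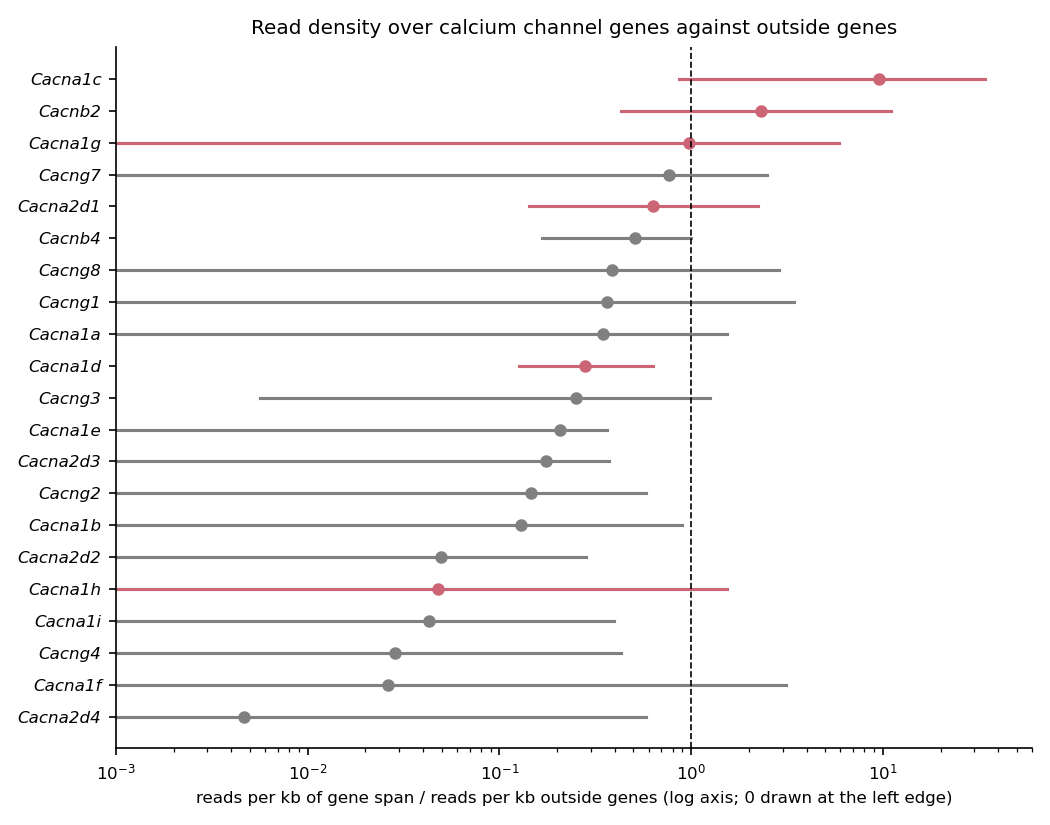
Reads per kb of gene span divided by reads per kb outside genes in the same library (log axis), as the median (point) and range (line) over 21 libraries, with the 6 genes described here in red and other voltage-gated calcium channel genes in grey. The dashed line marks equal density; Cacna1c (median 9.51) and Cacnb2 (2.31) lie to its right, and genes with a median of 0 are not drawn.

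Cacna1c, the ventricular L-type pore, was high at P1 and P7 and lower at P14. In controls its level was 4665, 10578 and 8269 CPM in the 3 libraries at P1, 12237, 14709, 7986 and 7712 CPM at P7, and 4802, 4016 and 3148 CPM at P14. Every P14 control library lay below every P7 control library, whereas P1 and P14 overlapped. Without TMM factors P1 and P14 controls did not overlap, at 6229 to 9726 and 4650 to 5311 CPM. From P7 to P14 Cacna1c fell by 1.42 on the log2 scale (SE 0.32; 2.67-fold lower at P14; edgeR quasi-likelihood test, adjusted p = 0.00192). In this comparison 1.88% of all genes tested were called, which means an adjusted p below 0.05 and a log2 change beyond 1 in either direction, and the median over all genes was -0.75, so that the difference of Cacna1c from the median gene was -0.67. For the same step in controls, the study reported gene sets of ion channels as higher at P14 than at P7. Gene sets were not tested here. In a bulk sample, fewer cells of a type and less RNA per cell cannot be told apart, and CPM gives a gene's part of all reads rather than its amount. The call was kept in 3 of 11 other fits, and under quantile normalization the value turned to 0.04. It was no longer called with the share of reads outside genes as a term in the fit (log2 change -0.30, adjusted p = 0.968), and with all 24 libraries (log2 change -0.89, adjusted p = 0.301). Left out singly, P14 control replicate 2 (-1.28, adjusted p = 0.0552) and replicate 4 (-1.27, adjusted p = 0.173) each ended the call.

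In depleted nuclei the Cacna1c level was 11741, 10411, 4592 and 14781 CPM at P1, 13233, 10109, 5802 and 5667 CPM at P7, and 4482, 1084 and 934 CPM at P14. Again no P14 library reached a P7 library, and here none reached a P1 library either. The separation from P7 depended on scaling: without TMM factors P14 replicate 2, at 5444 CPM, lay above P7 replicate 3, at 5005 CPM. The replicate 2 library of P14 depleted nuclei stood well above its 2 companions. Those 2 lay just below the density outside genes over both strands (ratios of 0.914 and 0.865). Cacna1c fell from P7 to P14 by 2.01 on the log2 scale (SE 0.33; 4.02-fold lower; adjusted p = 5.48e-07, edgeR), with 2.83% of all genes called and a median over all genes of -0.61. From P1 to P14 it fell by 2.26 (SE 0.34; 4.79-fold lower; adjusted p = 2.43e-08, edgeR), with 1.94% of genes called and a median of -0.41. Without P14 depleted replicate 2 these changes were -3.11 and -3.36, and over all single omissions they reached -1.47 and -1.78 at the other end, with no call lost. With the share of reads outside genes in the fit they were -0.90 (adjusted p = 0.617) and -1.44 (adjusted p = 0.299), and neither was called. With all 24 libraries the P7 to P14 change was -1.78 and missed the threshold (adjusted p = 0.0545), and limma-voom with TMM called neither change (-1.99 and -2.75).

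Between P1 and P14 in controls the Cacna1c change was -0.97 (SE 0.33, unadjusted p = 0.00364, adjusted p = 0.283 by edgeR), and 0.319% of all genes were called. In a fit blocked on replicate number the value was -1.42 and was called (adjusted p = 0.00363), and with the share of reads outside genes as a term it was -0.69 (adjusted p = 0.593).

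Cacnb2 encodes the β subunit that brings the L-type pore to the membrane and shapes its gating. Its levels in controls were 893, 1821 and 1603 CPM at P1, 2673, 2162, 1210 and 1147 CPM at P7, and 1419, 641 and 770 CPM at P14, so that P7 and P14 overlapped. The control change from P7 to P14 was -0.93 (SE 0.41, unadjusted p = 0.0224, adjusted p = 0.28 by edgeR), and it turned to 0.09 under quantile normalization and to 0.30 with the share of reads outside genes as a term. In depleted nuclei the levels were 2368, 1732, 777 and 2555 CPM at P1, 2712, 1853, 962 and 1033 CPM at P7, and 594, 344 and 294 CPM at P14. There all P14 libraries lay below all P7 and P1 libraries, and below the density outside genes over both strands. Cacnb2 fell from P7 to P14 by 2.00 on the log2 scale (SE 0.43; 4-fold lower; adjusted p = 0.000325, edgeR) and from P1 to P14 by 2.18 (SE 0.43; 4.53-fold lower; adjusted p = 0.000112, edgeR). Relative to the median over all genes these changes were -1.39 and -1.77. The P7 to P14 change was -1.61 without P14 depleted replicate 4, and the call was lost (adjusted p = 0.0538). With the share of reads outside genes as a term the first change was -0.68 (adjusted p = 0.492) and the second -1.19, still called.

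Cacna2d1 encodes the extracellular α2δ subunit that supports channel trafficking. Its mean level in controls was 370 ± 248 CPM (SD, n = 3) at P1, 572 ± 157 (n = 4) at P7 and 351 ± 170 (n = 3) at P14, and in depleted nuclei 379 ± 148 (n = 4), 471 ± 122 (n = 4) and 216 ± 60.7 (n = 3). In depleted nuclei the 3 P14 libraries, at 286, 177 and 184 CPM, all lay below the 4 P7 libraries, at 629, 427, 488 and 340 CPM. Without TMM factors these depleted libraries overlapped, at 259 to 347 CPM at P14 and 300 to 461 CPM at P7. The change there was -1.13 (SE 0.53, unadjusted p = 0.0326, adjusted p = 0.278 by edgeR) and was not called, and it was -0.13 with the share of reads outside genes as a term. Cacna2d1 was called in none of the 13 comparisons.

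**Figure D2:**
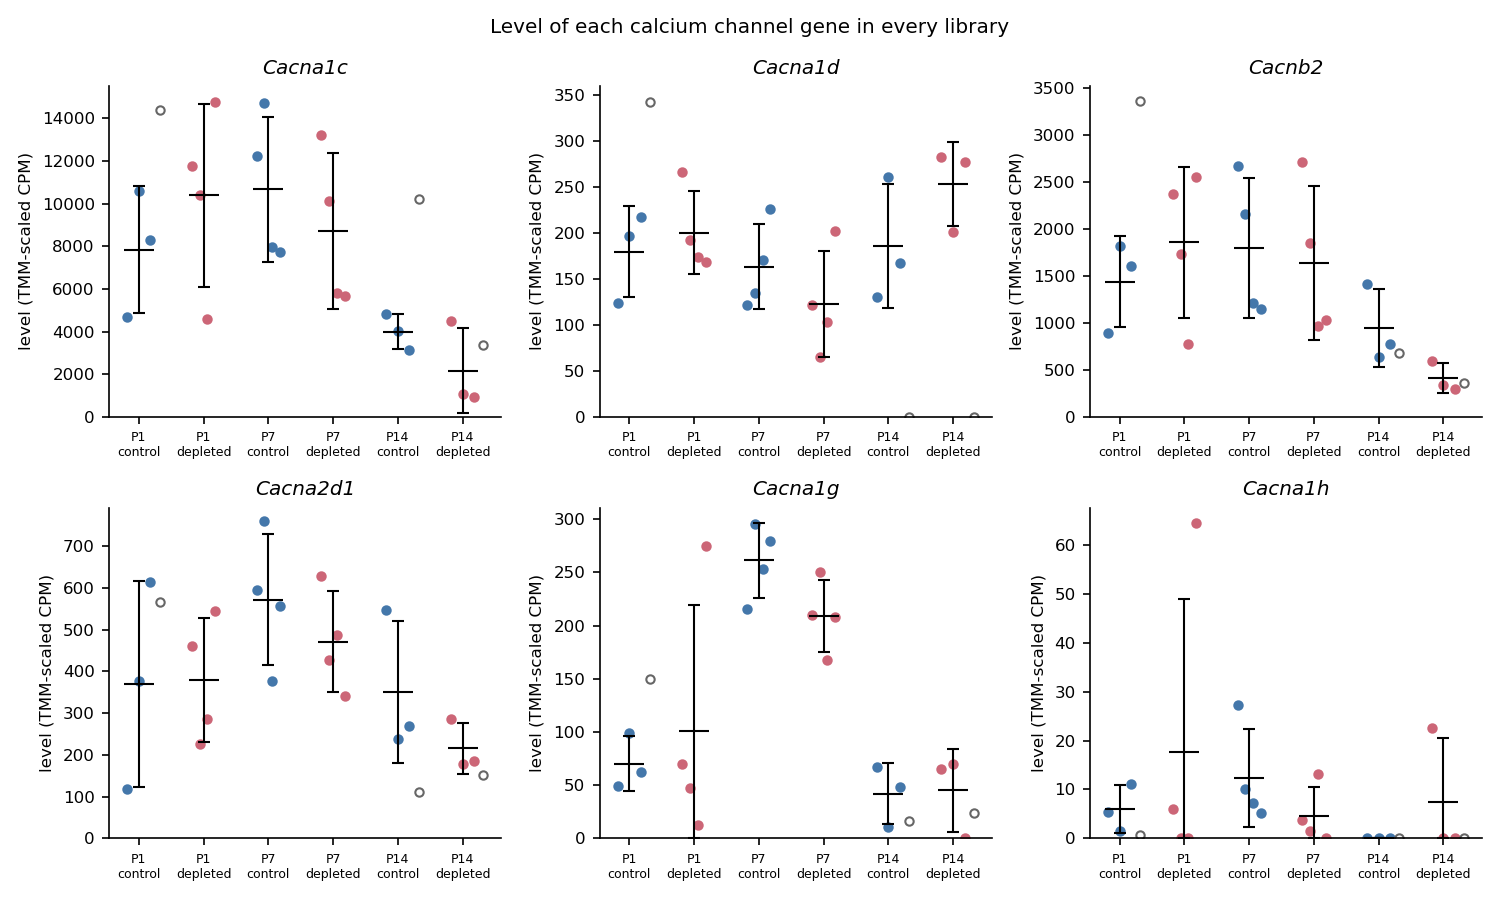
Level of each gene in TMM-scaled CPM in every library of the 6 groups (blue, control; red, depleted; open grey, the libraries set aside), with bars for the mean ± SD of the libraries kept, cut at 0. The 3 P14 control libraries of Cacna1c sit between 3148 and 4802 CPM, below the 4 P7 control libraries at 7712 CPM or more.

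Cacna1g, the T-type pore that is known to be active in the developing ventricle and the conduction system, had its highest mean levels at P7. In controls it was 48.8, 98.6 and 62.8 CPM at P1, 216, 296, 253 and 280 CPM at P7, and 67.2, 10.5 and 48.6 CPM at P14. The 4 P7 libraries lay above all others of the genotype, with no overlap. The P1 and P14 control libraries lay below the density outside genes over both strands. From P7 to P14 Cacna1g fell by 2.63 on the log2 scale (SE 0.78; 6.2-fold lower; adjusted p = 0.0424, edgeR), and its difference from the median gene was -1.88. This call was close to the threshold: it was kept in 2 of 11 other fits, those with the replicate block and with only the 2 groups compared, and the sign was the same in all 11. With the share of reads outside genes as a term it was -1.42 (adjusted p = 0.586). Leaving out a single library ended the call in 15 of 21 cases (log2 changes of -3.14 to -2.02 over all 21, adjusted p of 0.0504 to 0.25 where it was lost). Among these were each of the 4 P7 controls, each of the 4 P7 depleted libraries, and P14 control replicates 2 (-2.02, adjusted p = 0.25) and 4 (-2.75, adjusted p = 0.114). The others were P1 control replicates 2 and 3, P1 depleted replicates 1 and 4 and P14 depleted replicate 3. From P1 to P7 the change was 1.90 (SE 0.75, unadjusted p = 0.0116, adjusted p = 0.626 by edgeR), or 0.91 with that term; only 0.00982% of all genes were called in this comparison.

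From P1 to P7 no member was called in depleted nuclei, where 0.0196% of all genes were, and none reached an unadjusted p below 0.05. In depleted nuclei Cacna1g was 69.9, 47, 12.2 and 275 CPM at P1, 210, 250, 168 and 208 CPM at P7, and 64.9, 70 and 0 CPM at P14, where 0 reads allowed up to 1.97 CPM. P14 lay below P7 in every library, and at P1 replicate 4 alone was as high as P7. The change from P7 to P14 was -2.21 (SE 0.76, unadjusted p = 0.00377, adjusted p = 0.0966 by edgeR) and was not called, and with the share of reads outside genes as a term it was -0.94.

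Cacna1h, the other T-type pore, was close to the limit of detection. It had 25 reads in P1 controls, 84 in P7 controls and 0 in P14 controls, and 141, 29 and 32 reads in depleted nuclei, of which 129 at P1 came from replicate 4 and all 32 at P14 from replicate 2. With the limit of 3 reads over the 3 P14 control libraries (0.738 CPM), P14 controls were at least 18.5-fold lower than P7 controls and at least 7.81-fold lower than P1 controls in pooled CPM, and P14 depleted nuclei were at least 9.57-fold higher than P14 controls. Each bound leans on 1 library. Of the 84 reads in P7 controls 52 came from replicate 1, without which the bound is 10.2-fold, and of the 25 in P1 controls 14 came from replicate 4, without which it is 4.84-fold. The last value rests on replicate 2 alone, since the other P14 depleted libraries had no read. In the edgeR test these 3 differences had an unadjusted p of 0.0249, 0.0447 and 0.0379 and none was called (adjusted p of 0.293, 0.428 and 0.388). The interaction of genotype with the step from P7 to P14 had an unadjusted p of 0.0329 (adjusted p = 0.478 by edgeR), and no size is given for it because P14 controls had no read.

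Cacna1d, the L-type pore of sinoatrial and atrial cells, had mean levels of 180 ± 49.2 CPM at P1, 164 ± 46.7 at P7 and 186 ± 67.5 at P14 in controls, and 201 ± 45 at P1, 123 ± 57.9 at P7 and 254 ± 45.6 at P14 in depleted nuclei (SD, n = 3 or 4). It was not called in any comparison by edgeR, while DESeq2 and limma-voom with quantile normalization called a rise from P7 to P14 in depleted nuclei (log2 changes of 1.42 and 1.62). As given above, its reads lay below the density outside genes counted over both strands, in every library, and above the density per strand in 9. Without TMM factors, markers of pacemaker and conduction cells summed to 295 to 672 CPM at P14 and 82.2 to 313 CPM at P7. Hcn4 and Shox2 were at 0 in both P14 groups. Markers of atrial cells summed to at most 101 CPM. Their part in the Cacna1d level was not tested.

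**Figure D3:**
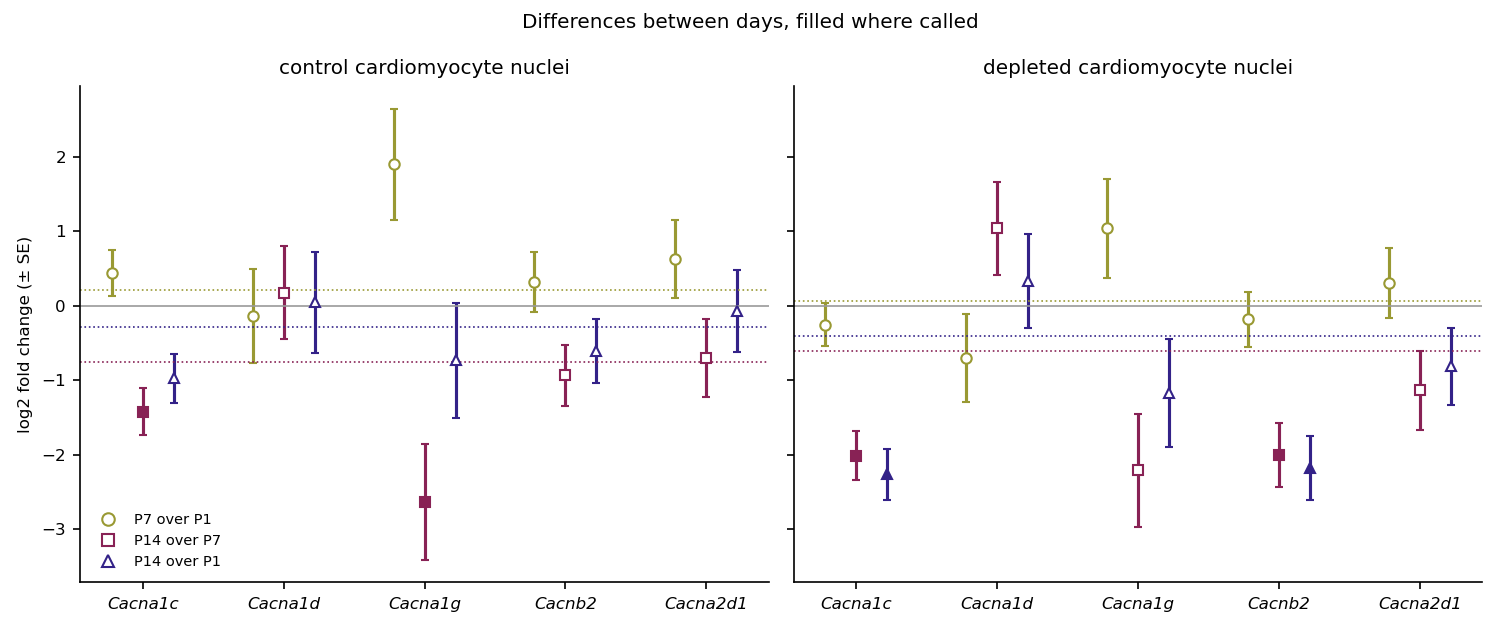
Log2 fold change with SE between days for 5 genes in control (left) and depleted (right) nuclei, filled where called, with dotted lines for the median over all genes in the same colour. From P7 to P14 Cacna1c lies at -1.42 and -2.01, below the medians of -0.75 and -0.61; Cacna1h is left out because it had no reads in P14 controls.

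Within a library, reads on the 4 pore-forming genes can be divided among them without scaling between libraries. Cacna1c took 93.2 to 97.7% of these reads in the 18 libraries outside the P14 depleted group, and 92.4, 80.0 and 77.1% in the 3 P14 depleted libraries (95% Wilson intervals of 91.7 to 93.0, 78.3 to 81.6 and 75.1 to 79.0%). Cacna1d took 5.83, 14.8 and 22.9% there, against 2.6, 6.09 and 4.97% in P14 controls and 0.624 to 3.64% at P1 and P7. These intervals cover counting error only. The larger Cacna1d share came with few Cacna1c reads (1720 and 1425 in the latter 2 libraries). In these 3 libraries Cacna1d reads lay below the density outside genes over both strands (ratios of 0.327, 0.229 and 0.347), and per strand at ratios of 1.04, 0.727 and 1.1. Cacna1g took 1.55 to 3.42% of pore-forming reads in the 8 P7 libraries and 0.255 to 1.8% in the 7 P1 libraries. At P14 it took 1.34, 0.245 and 1.44% in controls and 1.34, 5.16 and 0% in depleted nuclei, so that 1 P14 depleted library had the highest share of all 21 and the share did not separate P7 from P14 there. Per 100 Cacna1c reads there were 14.7 to 21.8 Cacnb2 reads at P1 and P7, and 13.3 to 31.7 at P14.

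**Figure D4:**
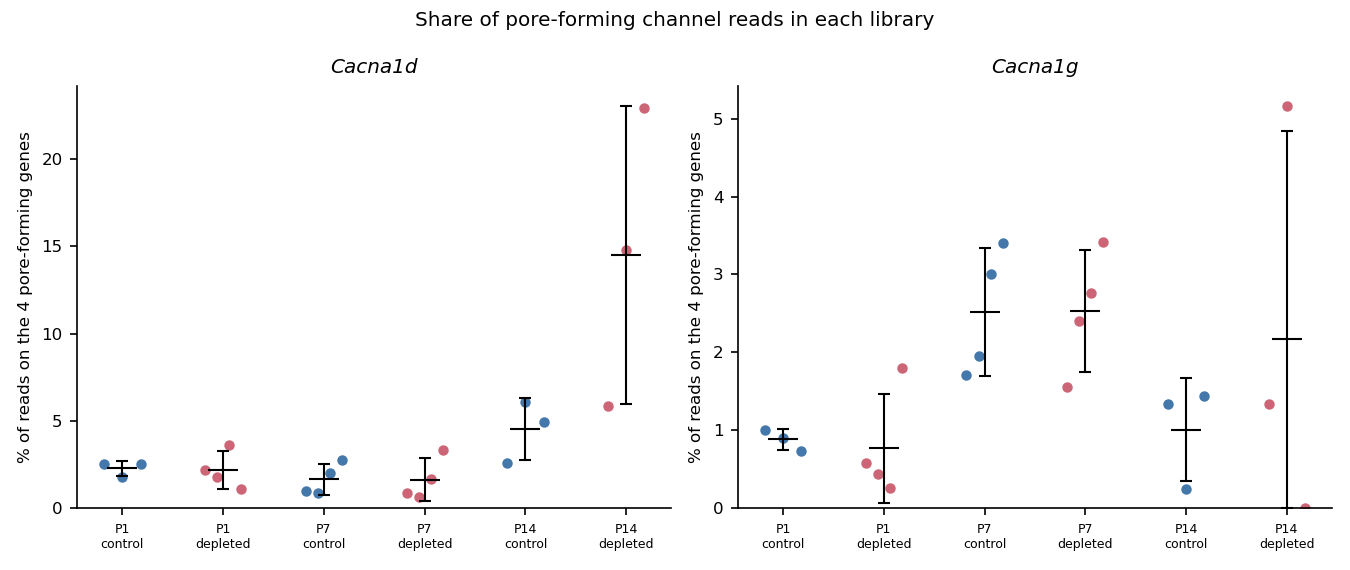
Share of the reads on the 4 pore-forming genes taken by Cacna1d (left) and Cacna1g (right), in percent, in each of 21 libraries by group, with the mean ± SD cut at 0. The Cacna1d share is 5.83 to 22.9% in P14 depleted libraries, and the Cacna1g share is 1.55 to 3.42% in P7 libraries and 0 to 5.16% in P14 depleted libraries.

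Cacna1c and Cacnb2 moved together across libraries. Their log2 CPM had a Pearson correlation of 0.95 over the 21 libraries, which share day, depth and read composition, so it is given as a description. Among 8434 other genes with a median of at least 20 reads, the genes most like Cacna1c were Cacnb2, Tnni3k and Ctnna3 (each 0.95), and those most like Cacnb2 were Ctnna3 (0.97), Cacna1c (0.95) and Pcdh7 (0.94). Tnni3k is a CM kinase and Ctnna3 an α-catenin of the intercalated disc. The genes most like Cacna1g were Vcp (0.93), Rock1 (0.92) and Pafah1b1 (0.91), those most like Cacna2d1 were Mtdh (0.93), Atad2b (0.92) and Tpm1 (0.91), and those most like Cacna1d were Tnfrsf21 and Bag4 (0.73 each) and 2210408I21Rik (0.72). Between members, the correlation of Cacna1c was 0.70 with both Cacna1g and Cacna2d1, 0.54 with Cacna1h and -0.35 with Cacna1d.

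The share of reads outside genes moved with most of these levels. Over the 21 libraries its Pearson correlation with log2 CPM was -0.79 for Cacna1c, -0.84 for Cacnb2, -0.82 for Cacna2d1, -0.70 for Cacna1g, -0.61 for Cacna1h and 0.46 for Cacna1d. The dyad genes Slc8a1 (-0.86) and Ryr2 (-0.83) had values like those of Cacna1c. The share was 63.7 to 76.1% at P14 and 34.3 to 64.3% at P7, so that it and the step from P7 to P14 are largely confounded, and the changes from P7 to P14 printed above for Cacna1c, Cacnb2, Cacna2d1 and Cacna1g are each given there also with the share as a term.

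**Figure D5:**
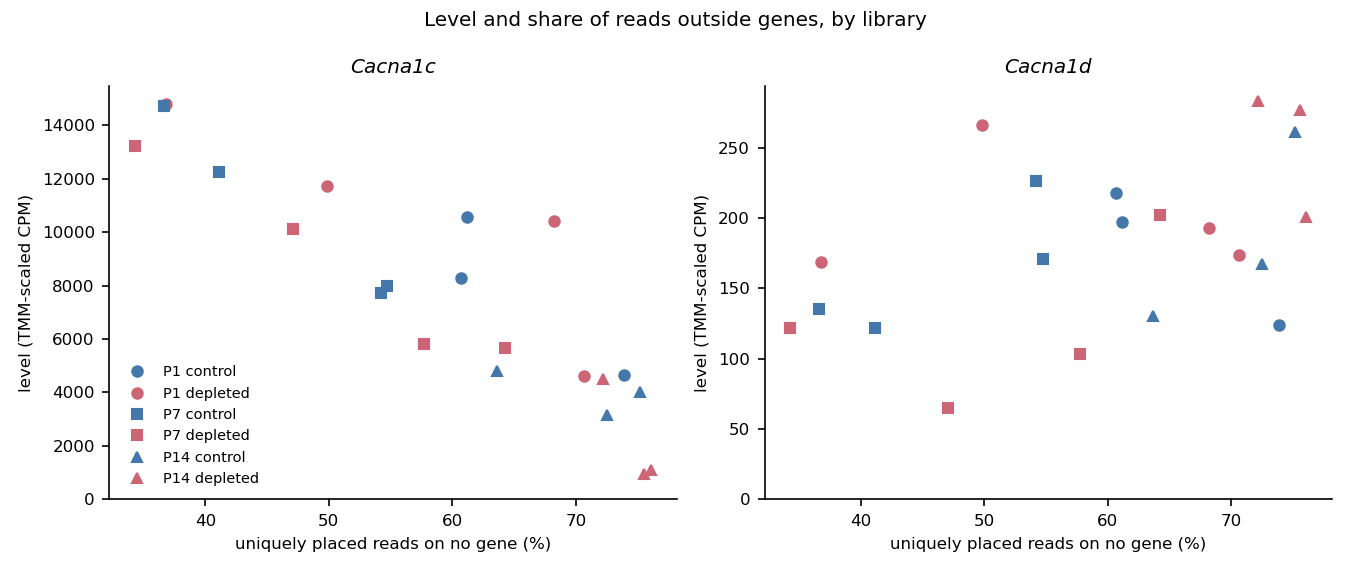
Level in TMM-scaled CPM against the percent of uniquely placed reads on no gene, for Cacna1c (left) and Cacna1d (right), 1 point per library and 21 in all, by day (circle, P1; square, P7; triangle, P14) and genotype (blue, control; red, depleted). Cacna1c libraries with a larger share of reads outside genes have lower levels (Pearson -0.79, computed on log2 CPM), and Cacna1d libraries do not (0.46, also on log2 CPM).

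Between genotypes no member was called on any day. At P1 0% of all genes were called, and the mean Cacna1c level was 7837 ± 2980 CPM (SD, n = 3) in controls and 10381 ± 4271 (n = 4) in depleted nuclei. At P7, the age at which the study examined the genotypes most closely, it reported genes differing between genotypes by limma at the same thresholds. Among these were Cdkn1a, Foxm1, E2f8, Lin37 and Bin1. The study's qRT-PCR backing for Cdkn1a and Lin37 came from isolated P7 CMs of WT and Casp2(-/-) mice, not from sorted nuclei of these genotypes. In the edgeR fit here no gene in the whole table was called (0%), and the cause of this difference was not tested. An unadjusted p below 0.05 was reached by 860 of 20368 genes (4.22%), none of them a member. Here the log2 change of depleted over control was -0.29 for Cacna1c (SE 0.29, 95% interval -0.86 to 0.27), -0.41 for Cacna1d (SE 0.59, -1.56 to 0.74) and -0.32 for Cacna1g (SE 0.65, -1.61 to 0.96). For the auxiliary genes it was -0.13 for Cacnb2 (SE 0.37, -0.85 to 0.59) and -0.28 for Cacna2d1 (SE 0.47, -1.21 to 0.65). Cacna1h, with 84 and 29 reads, gave -1.42 (SE 2.26, -5.85 to 3.02). All 6 adjusted p values were 1 by edgeR, and DESeq2 and limma-voom called no member either. Every interval includes 0. Those of Cacna1c and Cacnb2 end short of 1 in either direction on the log2 scale, whereas those of the other 4 genes do not. The intervals rest on the SE of the main fit alone. Over single omissions the changes reached -0.56 for Cacna1c and -0.48 for Cacnb2. No intervals are given for those fits, so the intervals above are not read as excluding a change of 1.

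At P14, Cacna1c and Cacnb2 had lower means in depleted nuclei. Cacna1c was at 3989 ± 827 CPM in controls and 2167 ± 2006 in depleted nuclei (SD, n = 3 each), where 1 of 3 depleted libraries, at 4482 CPM, lay within the control range. The log2 change was -0.88 (SE 0.33, unadjusted p = 0.0085, adjusted p = 0.363 by edgeR), and 0.167% of all genes were called. Cacnb2 was at 943 ± 417 CPM in controls and 411 ± 161 in depleted nuclei, with 3 depleted libraries (594, 344 and 294 CPM) below all 3 controls. Its change was -1.20 (SE 0.43, unadjusted p = 0.00544, adjusted p = 0.349 by edgeR). Without P14 depleted replicate 2 the Cacna1c change was -1.98 and was called (adjusted p = 0.000728), whereas without replicate 3 or 4 of that group it was -0.52 and -0.48. The Cacnb2 change ranged from -1.57 to -0.78 over single omissions and was never called. With the share of reads outside genes as a term the changes were -0.74 for Cacna1c and -0.94 for Cacnb2. Over the mean of the 3 days, where 0.0147% of genes were called, no member passed even the unadjusted threshold.

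Whether the change with age differed by genotype was tested as an interaction. From P1 to P14 the difference was -1.29 for Cacna1c (SE 0.46, unadjusted p = 0.00505, adjusted p = 0.24 by edgeR) and -1.57 for Cacnb2 (SE 0.59, unadjusted p = 0.00778, adjusted p = 0.246), a larger decrease in depleted nuclei that was not called; 0.0638% of all genes were. Without P14 depleted replicate 2 the Cacna1c value was -2.39 and was called (adjusted p = 0.00345), whereas without replicate 3 or 4 of that group it was -0.94 and -0.90. The Cacnb2 value ranged from -1.94 to -1.15 and was never called. With the share of reads outside genes as a term the values were -0.74 for Cacna1c and -0.84 for Cacnb2. Neither gene passed the unadjusted threshold in the interaction from P1 to P7 (0% of genes called) or from P7 to P14 (0.0245% called).

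Of the 20 other voltage-gated calcium channel genes, all were tested and 0 were called in each of the 13 comparisons by edgeR, with 0 to 2 at an unadjusted p below 0.05, and none was called by DESeq2 or limma-voom. The 4 with the most reads were Cacna2d3 (6402), Cacnb4 (6151), Cacna1a (6053) and Cacna1e (4298). Cacna1s, the L-type pore of skeletal muscle, had 18 reads. From P7 to P14 the median change of the list was 0.60 in controls and -0.69 in depleted nuclei, against -0.75 and -0.61 over all genes.

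Of 24 regulators and dyad partners of the L-type channel, 21 were tested. From P7 to P14, 4 were called lower in controls (Prkar1a, Jph2, Ryr2 and Slc8a1) and 6 in depleted nuclei (these and Adrb1 and Camk2d). None was called higher, where 1.88 and 2.83% of all genes were called. Called or not, 17 were lower and 3 higher in controls, and 20 lower and 1 higher in depleted nuclei. Ryr2, the calcium release channel that faces Cav1.2 across the dyad, had mean levels of 17672 ± 7996 CPM (SD, n = 4) at P7 and 6956 ± 4619 (n = 3) at P14 in controls, and fell by 1.35 on the log2 scale (SE 0.31, adjusted p = 0.00188, edgeR). Slc8a1, the sodium-calcium exchanger, went from 5534 ± 1783 to 1194 ± 646 CPM and fell by 2.21 (SE 0.36, adjusted p = 1.55e-06). In depleted nuclei Ryr2 fell by 1.97 (SE 0.31, adjusted p = 1.62e-07) and Slc8a1 by 3.23 (SE 0.38, adjusted p = 1.03e-13). Jph2, the junctophilin that holds the dyad together, had means of 776 ± 272 and 179 ± 73.7 CPM in controls and 597 ± 301 and 97.9 ± 17.3 CPM in depleted nuclei. Akap6, an anchoring protein for protein kinase A and the third most read of the list, was at 803 ± 144 and 340 ± 136 CPM in controls and 750 ± 366 and 333 ± 130 CPM in depleted nuclei and was not called. The median over the 21 genes was -1.24 in controls and -2.07 in depleted nuclei, against -0.75 and -0.61 over all genes. With the share of reads outside genes as a term, 2 of the 21 were called in depleted nuclei, against 6 without it. For that fit the share of all genes called and the count in controls are not given here. The 2 are therefore not read as a result about the list.

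Adrb1 encodes the β1-adrenergic receptor, which raises L-type current through protein kinase A. It was the one gene of these lists called in an interaction, from P1 to P14 (-5.56, SE 1.33, adjusted p = 0.0457 by edgeR). Its mean was 39.4 ± 29 CPM at P1 and 52.9 ± 77 at P14 in controls, where the P14 libraries ranged from 1.52 to 141 CPM, and 123 ± 79.7 and 3.45 ± 4.44 CPM in depleted nuclei, where 15 reads remained at P14. The call was close to the threshold, and its values in other fits and without single libraries are not given here. Prkar1a, a regulatory subunit of protein kinase A, had 1048 reads at P7 in controls and 5 at P14, and 855 and 2 in depleted nuclei.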

How the data were processed

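RNA of PCM1-sorted CM nuclei was measured in 24 libraries, 4 per day and genotype. The authors trimmed the reads, aligned them to GRCm39 with STAR 2.6.1e and used HTSeq 2.0.3 to count them across entire genes (exons and introns). The deposited counts are raw, un-normalized integers for each gene. Molecular identifiers and the strand setting are not given in the sources used here. Gene positions came from GENCODE on GRCm39, which names 56236 of 56923 identifiers.

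The 21 libraries kept by the study held a median of 1452114 reads on genes. Reads on no gene (34.3 to 76.1% of uniquely placed reads) stayed out of library sizes. A count of 0 was read as at most 3 reads, which is 1.03 to 3.36 CPM before scaling. Counts were tested with edgeR 4.0.16 in R 4.3.3 (TMM factors, robust quasi-likelihood fit of 6 group means, 15 residual degrees of freedom, Benjamini-Hochberg adjustment over all 20368 genes that had 10 or more reads, detected in 3 or more libraries). Calls required an adjusted p below 0.05 together with a log2 change beyond 1 up or down. The test was run on simulated counts, with a required recovery set only at a spread lower than that of these data. Recovery at the spread estimated from these data had no pass limit and is not given here. The common biological coefficient of variation was 1.5, and that of the members was 0.6 to 2.05. No pair of replicates agreed within sampling noise (over 36 pairs, chi-square divided by its degrees of freedom was 19.2 to 180), and each replicate is a separate pool of hearts.

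The replicate number is given as a batch with the deposited counts. Deviations of same-numbered libraries from their group means correlated at -0.059 to 0.185 over 9 pairs, 1 of them over 0.1. Alternatives were other filters, all 24 libraries, thinning to 891817 reads, a replicate block, limma 3.58.1 (voom), DESeq2 1.42.0, only the groups compared, reads outside genes as a covariate and leaving out each library. The study itself used limma. A fit without the robust option and Cacna1h bounds without single libraries were added after seeing the data. The members, lists and tests were chosen with earlier results of these data known. Fold changes are printed for members that are called or have an unadjusted p below 0.05 (for Cacna1h against P14 controls, bounds or the p alone), and for all 6 members at P7 between genotypes. Of the lists, the called genes and the 4 most read genes are named, and Cacna1s was added after its values were seen.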

Additional observations from a re-analysis of the deposited data

Results flagged for a closer look

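In P1 depleted nuclei the Cacna1h level of replicate 4, at 64.5 CPM, stood far from the other 3 libraries of its group, which were at 0 to 6.03 CPM. This was the only one of 18 gene and group combinations of 4 libraries to pass the 95% limit of Dixon's test, and chance flags about 1 in 20. The same library also had the highest Cacna1g level of its group, at 275 CPM, and the lowest share of reads outside genes, at 36.8%.

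The libraries set aside by the study hold members at levels above every control library kept of the same day, in CPM without TMM factors. P1 control replicate 1 had 14104 CPM of Cacna1c, 336 CPM of Cacna1d, 147 CPM of Cacna1g and 3299 CPM of Cacnb2, where the 3 libraries kept reached at most 9726, 211, 90.7 and 1674 CPM. P14 control replicate 3 had 10035 CPM of Cacna1c against at most 5311 CPM in the libraries kept, with 2049 genes detected in all and 0 reads on Cacna1d. Reads outside genes made up 9.2% in P1 control replicate 1, against 60.7 to 73.9% in the libraries kept. In P14 control replicate 3 they made up 16.1%, against 63.7 to 75.2%. The study set the P1 library aside as probably contaminated with cytoplasm. The part of read composition in these levels was not tested.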

How the results depend on the processing

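The number of members called from P7 to P14 in controls, 2 as reported, was 0 with filterByExpr, no filter, all 24 libraries, limma-voom with quantile normalization, DESeq2 and reads outside genes as a covariate. It was 1 with thinning (Cacna1c), limma-voom with TMM (Cacna1h), only the groups compared (Cacna1g) and the fit without the robust option (Cacna1c), and 0 to 2 without single libraries. In depleted nuclei the number from P7 to P14, 2 as reported, was 0 with all 24 libraries, limma-voom with TMM and reads outside genes as a covariate, 1 with quantile normalization (Cacna1d), and 1 to 2 without single libraries. From P1 to P14 in depleted nuclei, 2 as reported, it was 1 with all 24 libraries (Cacna1c) and with reads outside genes as a covariate (Cacnb2), and 0 with limma-voom under TMM or quantile normalization. With the replicate block, 1 member was called from P1 to P14 in controls (Cacna1c, -1.42), and the block changed no other count of members called. Without single libraries the number was 0 to 1 for the genotypes at P14 and for the interaction from P1 to P14. Other counts of members called were within 1.5 times of the reported ones. The cause of these differences was not tested.

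Values that turned sign were Cacna1c (0.04) and Cacnb2 (0.09) from P7 to P14 in controls under quantile normalization, and Cacnb2 there (0.30) with reads outside genes as a covariate. Between genotypes at P7, Cacna1c (0.37) and Cacnb2 (0.10) did so under quantile normalization, Cacna1h (0.05) and Cacnb2 (0.04) with reads outside genes as a covariate, and Cacnb2 ranged from -0.48 to 0.15 without single libraries. With 891817 to 2924097 reads per library, genes such as Cacna1h rest on few reads.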
